A study of Mus musculus with 18 samples.

Results

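The 4 genes described here, APAF1, Casp9, Diablo and Birc2, encode the scaffold, the initiator caspase, an inhibitor antagonist and an inhibitor-family ubiquitin ligase of the apoptosome pathway. They were taken by gene name from a pooled CRISPR library of 252 sgRNAs (single guide RNAs, which direct Cas9 to a gene). Each has 3 sgRNAs, so the members are 12 of 252 sgRNAs and 4 of 76 targeted genes, beside 24 non-targeting control sgRNAs. The rule uses gene names and no measured value, though the genes were picked with earlier results of these data known, and APAF1 is spelled here as in the deposited table, although the cells are from mouse.

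The study asked which cell-death genes alter the survival of tumour cells under antibody treatment in mice, and whether ITPK1 deficiency changes the answer. The cells were sensBa/F3 cells, derived from Ba/F3, a mouse pro-B cell line that depends on interleukin-3 and is grown in suspension. They were either ITPK1-WT or ITPK1-KO, the latter a pool of 6 clones with ITPK1 deletions. ITPK1 encodes an inositol phosphate kinase. Both pools carried the same sgRNA library, grew for 10 days, were labelled with CellTrace dyes (violet for ITPK1-WT, yellow for ITPK1-KO) and were mixed in equal parts. Interleukin-3 was at 0.2 ng/mL for both pools. All 8 mice were hCD89-transgenic, carrying the human Fc receptor for IgA, and received 20000000 cells into the peritoneum. The groups were therefore ITPK1-WT and ITPK1-KO cells from 4 vehicle (PBS) mice and the same from 4 mice given anti-hHer2 IgA, each recovered after 16 h by sorting viable dyed cells, plus 1 library of each background from before injection. Age, sex and strain of the mice were not used here. Dye and genotype cannot be told apart, and no library shows how many cells of an sgRNA had lost the targeted protein. The arm of each mouse came from the deposited sample legend, which names mice 1 to 4 as vehicle and mice 5 to 8 as treated.

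Background on the pathway helps to read the values. When mitochondria release cytochrome c, APAF1 oligomerises into the apoptosome, which recruits and activates caspase-9 (Casp9), and caspase-9 then carries the death signal downstream. Diablo (also called SMAC) leaves the mitochondria at the same time and binds inhibitor of apoptosis proteins, which frees caspases and can promote the turnover of cIAP1. Birc2 encodes cIAP1, a ubiquitin ligase that modifies RIPK1 at the TNF receptor and restrains caspase-8 and RIPK1 killing. In a pool, an sgRNA whose target is needed for death would take a larger share of the surviving cells, and one whose target protects would take a smaller share.

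The sequences of the sgRNAs are shown so that each value below belongs to a sequence. With the main scaling, the 3 sgRNAs of APAF1, Diablo and Birc2 did not share a direction in ITPK1-WT cells under IgA. When scaled to the non-targeting sgRNAs, those of APAF1 did, and Diablo sg-1 turned positive as well (0.0073). The sequences are printed 5′ to 3′ as deposited, with the 12 bases nearest the PAM, the seed that governs target recognition, in capitals.
APAF1 sg-1: tacaacgcTCTGCTACACGA
APAF1 sg-2: ccaattaaAGACACTACAAG
APAF1 sg-3: gaagaaatCATTTGACCCAG
Casp9 sg-1: cttcacgcGCGACATGATCG
Casp9 sg-2: ctggcttcACTCTTGCAAAG
Casp9 sg-3: gtcacagaCCTTGAGACCCG
Diablo sg-1: tcagtaacGAAGCATTGATG
Diablo sg-2: gagacctaCCTTAGTATACT
Diablo sg-3: gccaaccgCTGTCATCCAAG
Birc2 sg-1: aatcttgtCAAATTGGACAA
Birc2 sg-2: ggctgaacAGGAACACTAGG
Birc2 sg-3: tgaatgccACCTCGTTCCAG

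Their GC content ran from 30% to 60% with a median of 50%, against 25% to 85% and the same median of 50% over all 228 targeting sgRNAs. The base next to the PAM was G in 9 of the 12 (75%) and in 129 of the 228 (56.6%). None of the 12 held a run of 4 equal bases, which 23 of the 228 did. No 2 members were close in sequence, with at least 10 mismatches between any pair. None matched the 300-base RefSeq promoter window of its own gene (GRCm38.p6) on either strand. The position of each cut in its gene was not analysed here. No genome sequence, exon annotation or protein table was available, and the deposited data name no genome build.

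Read totals ran from 317564 to 808586 over the 18 libraries. The members together took 5.12% to 5.168% of reads in ITPK1-WT vehicle libraries and 5.201% to 5.373% in ITPK1-WT IgA libraries, with no overlap. In ITPK1-KO cells the corresponding shares were 5.322% to 5.398% and 5.334% to 5.459%, which overlapped. In ITPK1-WT cells the non-targeting sgRNAs separated too, the other way, at 13.44% to 13.52% in vehicle and 12.82% to 13.24% in IgA libraries. Targeting sgRNAs as a whole thus gained share there, so the separation is not particular to the members. From each vehicle mouse 2000000 cells were sorted per background, against 657000 to 2000000 ITPK1-WT and 955000 to 2000000 ITPK1-KO cells from IgA mice. The sample numbers of the read files form 2 series, 1 for mice 1 to 5 and 1 for mice 6 to 8 with the starting libraries. Cell number and number series move with the arm, and their part in the results was not tested beyond the fit with the series given below. Reads carry no molecular identifiers, so counting intervals cover counting error only.

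Before injection, all 4 genes lay below the median non-targeting sgRNA and, in both backgrounds, above the median gene of the library. On summed reads and as a percentage of that median, APAF1 was at 70.5% (ITPK1-WT) and 81.1% (ITPK1-KO), Casp9 at 75.9% and 81.1%, Diablo at 78.7% and 82.3%, and Birc2 at 75.0% and 83.1%. Among the 76 genes ranked from the highest, Diablo was at rank 19 in ITPK1-WT cells, Casp9 at 26, Birc2 at 28 and APAF1 at 35. In ITPK1-KO cells, Birc2 was at rank 23, Diablo at 26, and APAF1 and Casp9 shared 28.5. These ranks compare sgRNA cassettes, which reflect cloning as well as growth, and there was 1 library of each background.

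The sgRNAs of Birc2 spanned the widest range of the 4 genes at the start. Birc2 sg-1 reached 30.7% of the median control sgRNA among ITPK1-WT cells and 32.5% among ITPK1-KO cells, from 1003 and 922 reads. Birc2 sg-3 was at 123.4% and 138.9%, from 4032 and 3938 reads. Diablo sg-1 was close to the non-targeting level, at 96.9% and 103%, whereas Diablo sg-2 was at 60.7% and 62.8%. A gene sum therefore weighs the sgRNAs unequally, and for Birc2 it follows sg-3 most. The levels after 16 h in vehicle mice depended on the reference. The mean log2 change, taken against the median control sgRNA, was 0.016 ± 0.038 (SD, n = 4) for APAF1, −0.043 ± 0.021 for Casp9, −0.042 ± 0.046 for Diablo and −0.035 ± 0.035 for Birc2 in ITPK1-WT cells. In ITPK1-KO cells the same changes were −0.062 ± 0.016, −0.10 ± 0.029, −0.056 ± 0.022 and −0.10 ± 0.027. Against the median of all sgRNAs, the ITPK1-KO values of APAF1 and Diablo turned to 0.017 and 0.023, and those of Casp9 and Birc2 were −0.024 and −0.022. The starting libraries are of the second number series and the vehicle libraries of the first, and these cannot be told apart.

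The first comparison asks which sgRNAs gained or lost share in ITPK1-WT cells under IgA. Values are normalised CPM (a library's reads scaled to a fixed total, after TMM scaling), summed over a gene's 3 sgRNAs. Both genes of the apoptosome core rose by a few percent: APAF1 by 4.96% and Casp9 by 3.70%. Diablo and Birc2 did not pass the test. As a count, 2 of 4 genes and 4 of 12 sgRNAs passed, against 36.8% of all 76 genes and 27.8% of all 252 sgRNAs. Those shares are near each other, so the count does not set the members apart from the library.

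APAF1, the apoptosome scaffold, was at 12543.6, 12596.2, 12424 and 12303.9 CPM in the 4 ITPK1-WT vehicle libraries and at 13228.9, 12829.2, 13407.8 and 13050.1 CPM in the 4 IgA libraries. Every IgA mouse was above every vehicle mouse. The log2 fold change was 0.070 (SE 0.018, edgeR quasi-likelihood adjusted p = 0.00454), and it stayed past the threshold of 0.05 with each mouse left out in turn. With the number series as a covariate, which leaves mouse 5 against the vehicle mice of its series, it was 0.079 with an adjusted p of 0.0673.

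The 3 sgRNAs of APAF1 differed. APAF1 sg-3 was at 4006.59, 4087.48, 4045.81 and 3905.57 CPM in vehicle mice and 4533.3, 4206.66, 4768.79 and 4636.93 CPM in IgA mice. The arms did not overlap, and its log2 fold change of 0.17 (SE 0.036, adjusted p = 0.000198) was the largest rise among the APAF1 sgRNAs. With the number series as a covariate the value was the same, 0.17, but the call was lost (adjusted p = 0.0726). APAF1 sg-2 also had arms that did not overlap, with a log2 fold change of 0.067 (SE 0.035) that did not pass (adjusted p = 0.143), except without mouse 6 (0.089, adjusted p = 0.0380). APAF1 sg-1 was at 4370 ± 108 CPM (SD, n = 4) and 4294 ± 146 CPM, with a log2 fold change of −0.027 (adjusted p = 0.586). On summed reads, the increase of the gene was thus made up of sg-2 and sg-3.

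Casp9, the caspase that the apoptosome activates, was at 12764.1, 12920.8, 12902.3 and 12954.3 CPM in vehicle mice and 13746, 13484.1, 13124.7 and 13231 CPM in IgA mice. Again every IgA mouse was above every vehicle mouse, with mouse 5 the highest. The log2 fold change was 0.052 (SE 0.018, edgeR adjusted p = 0.0223). Without mouse 5 it was 0.042 with an adjusted p of 0.0711, and under limma on mean log2 CPM 0.048 with an adjusted p of 0.0811. With the number series as a covariate it was 0.087 (adjusted p = 0.0347), which is carried by that same mouse.

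All 3 Casp9 sgRNAs had a positive log2 fold change. With the main scaling the 3 sgRNAs shared a sign in 34 of the 76 genes, and Casp9 was the only member among these genes. This depended on the scaling. Scaled to the non-targeting sgRNAs, APAF1 sg-1, sg-2 and sg-3 were all positive too (0.024, 0.12 and 0.22). Diablo sg-1 also turned positive on that scale (0.0073), where Diablo sg-2 was at 0.26. Diablo sg-3, at −0.00063 with the main scaling, moved up as well. The spread among the Casp9 sgRNAs with the main scaling was 0.069, rank 60 of 76 from the widest and below the median of 0.108. Only Casp9 sg-2 passed (0.089, SE 0.033, adjusted p = 0.0348), and its arms overlapped: 4386.42, 4800, 4484.11 and 4755.65 CPM in vehicle mice against 5133.88, 4710.52, 4847.81 and 5007.71 CPM. That call was lost without mouse 1 (0.068, adjusted p = 0.170), mouse 3 (0.079, 0.112), mouse 5 (0.070, 0.154), mouse 7 (0.096, 0.0634) or mouse 8 (0.080, 0.0817), with the number series as a covariate (0.15, 0.0741), and with the mouse as a random block (0.097, 0.0579). Casp9 sg-1 and sg-3 were at 0.020 and 0.039, with adjusted p of 0.775 and 0.355.

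Diablo, the antagonist of inhibitor of apoptosis proteins, was at 13817.8, 13366.4, 13045.6 and 13290.6 CPM in vehicle mice and 14024.2, 13739.1, 13600.7 and 13542.2 CPM in IgA mice. The arms overlapped through vehicle mouse 1, the highest of its arm. The log2 fold change was 0.032 (SE 0.018, edgeR adjusted p = 0.181), and without mouse 1 it was 0.052 (adjusted p = 0.0377). Within Diablo, sg-2 differed from the other two. Diablo sg-2 was at 3433.78, 3066.51, 2924.78 and 3144.26 CPM against 3921.13, 3384.64, 3559.6 and 3716.61 CPM, and the arms overlapped in vehicle mouse 1 and IgA mouse 6. Its log2 fold change of 0.20 (SE 0.045, adjusted p = 0.000539) passed with each mouse left out. Diablo sg-1 was at −0.044 (adjusted p = 0.294) and Diablo sg-3 at −0.00063 (adjusted p = 0.999). The spread of 0.246 among them was rank 10 of 76.

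Birc2, which encodes cIAP1, was at 12883.6, 12524, 13018.2 and 12817.7 CPM in vehicle mice and 12825.4, 12544.5, 12347.4 and 12083.4 CPM in IgA mice. The arms overlapped in mice 5 and 6, while mice 7 and 8 were below every vehicle mouse. The log2 fold change of −0.045 (SE 0.019) did not pass (edgeR adjusted p = 0.0721). It passed without mouse 2 (−0.055, adjusted p = 0.0420) or without mouse 5 (−0.057, adjusted p = 0.0343). With the number series as a covariate it was −0.0046, and with the mouse as a random block, which takes the mean of log2 values over the sgRNAs in place of their sum, −0.0060.

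Among the Birc2 sgRNAs, sg-3 fell. Birc2 sg-3 was at 7212.17, 7074.63, 7282.46 and 7271.74 CPM in vehicle mice and 7009.8, 7039.16, 6310.61 and 6265.7 CPM in IgA mice. All IgA values were below all vehicle values, by little in mice 5 and 6 and by much more in mice 7 and 8. The log2 fold change was −0.12 (SE 0.033, edgeR adjusted p = 0.00497). Without mouse 7 it was −0.091 (adjusted p = 0.0768), and with the number series as a covariate it was −0.047 (adjusted p = 0.664). Birc2 sg-1 and sg-2 were at 0.045 and 0.042, with adjusted p of 0.622 and 0.402. The decrease was thus seen in 1 of 3 sgRNAs, the most abundant of them.

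Over the 12 sgRNAs the arms did not overlap in 3 (2 higher, 1 lower), against 22.2% of all 252. The non-targeting sgRNAs themselves lost share in ITPK1-WT cells under IgA, with a median log2 fold change of −0.059 against 0.0035 for targeting sgRNAs, and 8 of 24 fell and 1 rose. Scaled to them, all 12 member sgRNAs had higher log2 fold changes. APAF1 was then at 0.12, Casp9 at 0.10 and Diablo at 0.084, all past the threshold (edgeR adjusted p = 6.29e-05, 0.000143 and 0.00140), and Birc2 at 0.0069 (adjusted p = 0.790). Over all genes the split of 16 higher and 12 lower became 34 higher and 2 lower. The median log2 fold change over all genes moved up with it, from −0.0033 to 0.049. Genes above 0 were thus bound to stay there, and the unchanged direction of APAF1, Casp9 and Diablo is no separate check. The value of Birc2 turned from negative to near 0. Birc2 sg-3 remained negative but no longer passed (−0.066, adjusted p = 0.0517).

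The second comparison makes the same contrast in ITPK1-KO cells, where none of the 12 sgRNAs and none of the 4 genes passed. The background was 10.4% of sgRNAs and 13.2% of genes in that comparison. At an unadjusted p under 0.05, edgeR counted 3 of 12 member sgRNAs and 1 of 4 member genes, against 58 of all 251 sgRNAs and 21 of all 76 genes, and DESeq2 with its adjusted p called 0 members of either kind. Scaled to the non-targeting sgRNAs, 1 member gene passed: APAF1, at 0.053 (edgeR adjusted p = 0.0366). On that scale 14 of all 76 genes passed, 11 higher and 3 lower. The median log2 fold change over all genes moved up with it, from 0.0071 to 0.022.

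In ITPK1-KO cells APAF1 was at 13374, 13277.4, 13448.7 and 13631.8 CPM in vehicle mice and 13732.5, 13734.4, 14014.4 and 13640.4 CPM in IgA mice. The arms just failed to overlap, and the log2 fold change was 0.039 (SE 0.016, edgeR adjusted p = 0.123). Casp9 was at 12897.1, 13126.6, 13210.1 and 12981.7 CPM against 12977.8, 13101, 13255.5 and 13197.7 CPM, with a log2 fold change of 0.012 (SE 0.016, adjusted p = 0.663). These arms lay on top of each other.

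Diablo in ITPK1-KO cells was at 13395, 13908.1, 13498.9 and 13989.4 CPM in vehicle mice and 13251.5, 14157.6, 14175.4 and 13600.7 CPM in IgA mice, with a log2 fold change of 0.011 (SE 0.022, edgeR adjusted p = 0.771). Birc2 was at 13424.4, 13338, 13461.3 and 13407.5 CPM against 13457.2, 13541.5, 12747.1 and 13147.1 CPM, with −0.018 (SE 0.019, adjusted p = 0.579). Both genes overlapped between the arms, and Birc2 spread far more among IgA mice (SD 360 CPM) than among vehicle mice (SD 51.6 CPM). As in ITPK1-WT cells, mice 7 and 8 held the lowest Birc2 values of the treated arm.

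At the sgRNA level, Birc2 sg-3 was the only member whose ITPK1-KO arms did not overlap, against 12% of the 251 sgRNAs tested. It was at 7453.81, 7499.32, 7502.89 and 7709.29 CPM in vehicle mice and 7330.26, 7435.07, 6986.33 and 7101.19 CPM in IgA mice, with a log2 fold change of −0.063 (SE 0.027, edgeR adjusted p = 0.133). APAF1 sg-2 was at 0.081 and Diablo sg-2 at 0.090, with adjusted p of 0.133 and 0.143. Without mouse 5 both passed, at 0.10 (adjusted p = 0.0454) and 0.13 (adjusted p = 0.0136). APAF1 sg-3, the member with the lowest adjusted p in ITPK1-WT cells, was at 0.040 (adjusted p = 0.528).

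The third comparison tests whether the IgA effect itself differed between the backgrounds, as ITPK1-KO minus ITPK1-WT in 1 fit of all 16 recovered libraries. No member passed, against 3.97% of all sgRNAs and 6.58% of all genes. At an unadjusted p under 0.05 there was 1 member sgRNA and no member gene, against 29 of all 252 sgRNAs and 10 of all 76 genes, and DESeq2 called 0 members of either kind after adjustment. The differences were −0.037 (SE 0.025) for APAF1, −0.047 (SE 0.024) for Casp9, −0.026 (SE 0.029) for Diablo and 0.021 (SE 0.027) for Birc2, with edgeR adjusted p of 0.534, 0.427, 0.689 and 0.750. A rise of APAF1 and Casp9 past the threshold in ITPK1-WT cells only is therefore not shown to differ from ITPK1-KO cells.

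The lowest adjusted p of this comparison among members was that of APAF1 sg-3. It was at −0.14 (SE 0.048, edgeR adjusted p = 0.116), with the 4 IgA mice all below the 4 vehicle mice in their ITPK1-KO over ITPK1-WT ratio. It passed on the scale of the non-targeting sgRNAs (−0.17, adjusted p = 0.0336) and without mouse 6 (−0.17, adjusted p = 0.0202). Diablo sg-2 was at −0.12 (SE 0.061, adjusted p = 0.461) and passed without mouse 6 (−0.20, adjusted p = 0.0263). In mouse 6, Diablo sg-2 held its lowest ITPK1-WT value and its highest ITPK1-KO value of the treated arm.

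The fourth comparison sets ITPK1-KO against ITPK1-WT cells recovered from the same mouse, averaged over both arms. APAF1 and Birc2 were higher in ITPK1-KO cells in 8 of 8 mice, while Casp9 and Diablo did not pass. In all, 2 of 4 genes and 7 of 12 sgRNAs passed, against 56.6% of genes and 45.2% of sgRNAs. Neither share stands far from that background. Since dye and genotype go together, and each pool was transduced on its own, these differences belong to the pools as made.

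APAF1 had a log2 difference of 0.090 (SE 0.012, edgeR adjusted p = 3.11e-08), which ran from 0.054 to 0.15 over the 8 mice. APAF1 sg-1 (0.076, adjusted p = 0.00522) and sg-3 (0.14, adjusted p = 3.13e-07) were each higher in 8 of 8 mice, and sg-2 (0.054, adjusted p = 0.0567) in 7 of 8; sg-2 passed without mouse 5 (0.073, adjusted p = 0.0159). Birc2 had a difference of 0.076 (SE 0.014, adjusted p = 6.43e-06), from 0.046 to 0.12 over the mice. Birc2 sg-1 (0.12, adjusted p = 0.0134) and sg-3 (0.090, adjusted p = 0.000135) passed, while sg-2 was at 0.035 (adjusted p = 0.275). The call of Birc2 sg-1 was lost without mouse 4 (0.11, adjusted p = 0.0589) or mouse 6 (0.093, adjusted p = 0.0715).

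Within mice 1 to 5, APAF1 differed by 0.092 and Birc2 by 0.062 (edgeR adjusted p = 0.000113 and 0.00170). Within mice 6 to 8 they differed by 0.076 and 0.092 (adjusted p = 0.00921 and 0.00575). Both genes thus passed in each number series, where mice 1 to 5 hold both arms and mice 6 to 8 the treated arm alone. Of all 76 genes, 37 passed within mice 1 to 5 and 23 within mice 6 to 8.

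Casp9 as a gene did not differ past the threshold, at −0.0052 (SE 0.012, edgeR adjusted p = 0.730) and its sgRNAs went opposite ways. Casp9 sg-2 was higher in ITPK1-KO cells in 7 of 8 mice (0.077, adjusted p = 0.00280), and Casp9 sg-3 was higher in only 1 of 8 (−0.065, adjusted p = 0.00970). In ITPK1-WT cells Casp9 sg-3 was at 5031 ± 118 CPM (SD, n = 4) in vehicle and 5180 ± 161 CPM in IgA mice, against 4830 ± 89.0 and 4936 ± 79.3 CPM in ITPK1-KO cells. Diablo was at 0.022 (adjusted p = 0.196), and it passed without mouse 1 (0.036, adjusted p = 0.0455) or mouse 5 (0.036, adjusted p = 0.0322). Diablo sg-2 was at 0.083 (adjusted p = 0.0189), a call lost without mouse 2 (0.070, adjusted p = 0.0704), mouse 3 (0.070, 0.0687), mouse 6 (0.040, 0.305) or mouse 7 (0.078, 0.0688). Scaled to the non-targeting sgRNAs, APAF1 (0.064) and Birc2 (0.051) still passed, Diablo turned to −0.0039, 3 of 12 member sgRNAs did and the split over all genes moved from 21 higher and 22 lower to 11 higher and 33 lower.

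Before injection the backgrounds can be set side by side but not tested. Against each library's median non-targeting sgRNA, the log2 difference of ITPK1-KO over ITPK1-WT cells was 0.20 for APAF1 (95% exact counting interval 0.15 to 0.25), 0.15 for Birc2 (0.10 to 0.20), 0.096 for Casp9 (0.048 to 0.14) and 0.064 for Diablo (0.017 to 0.11). With 1 library of each background these have no replicate check, and the intervals are too narrow, since recovered libraries of a group differed by more than counting error. On the same scale after 16 h, APAF1 was at 0.12 ± 0.032 (SD, n = 4) in vehicle mice and 0.056 ± 0.040 in IgA mice, and Birc2 at 0.082 ± 0.023 and 0.073 ± 0.051. Casp9 was at 0.035 ± 0.010 and −0.042 ± 0.019, and Diablo at 0.050 ± 0.046 and −0.0067 ± 0.053. The order of APAF1 and Birc2 above Casp9 and Diablo was the same at the start and in vehicle mice. Relative to the median of all sgRNAs, the starting difference of Casp9 and Diablo turned negative, at −0.015 and −0.047. APAF1 was then at 0.091 and Birc2 at 0.038. The Birc2 value is closer to 0 than its counting interval reaches to either side.

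The authors' deposited table for ITPK1-WT cells (MAGeCK) gave a positive log2 fold change for 11 of the 12 members, with the exception of Birc2 sg-3. In that table the median over all sgRNAs was 0.055, the lowest FDR of a member was 0.998, and 0 of 252 sgRNAs had an FDR under 0.05. The authors' deposited table for ITPK1-KO cells gave a positive value for 8 of the 12, with a median over all sgRNAs of 0.013, a lowest member FDR of 0.595 and 12 of 252 sgRNAs under 0.05. The largest member values of the authors' deposited table for ITPK1-WT cells were those of Diablo sg-2 (0.30) and APAF1 sg-3 (0.27).

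Other genes of the mitochondrial pathway were counted from a list of which 12 are in the library, among them Bad, Bak1, Bax, Bbc3, Bcl2l11, Bid, Bmf, CASP2, CASP6 and Pmaip1. Xiap, the direct caspase inhibitor that Diablo antagonises, was not analysed here. In ITPK1-WT cells under IgA, 1 of 12 rose and 3 fell, against 16 and 12 of all 76 genes, with a median log2 fold change of −0.027 against −0.0033 over all genes. The 4 of 12 called are near the library's 36.8%. Bbc3, which encodes the BH3-only protein PUMA, rose (0.083, edgeR adjusted p = 0.00164). CASP2 (−0.091, adjusted p = 0.00164), Bid (−0.061, 0.0116), which links caspase-8 to mitochondria, and Pmaip1 (−0.060, 0.0159), which encodes NOXA, fell. Scaled to the non-targeting sgRNAs, 3 of 12 rose and none fell: these 3 decreases no longer passed.

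The pore formers upstream of the apoptosome did not pass. Bax and Bak1, which open the mitochondrial outer membrane, were at −0.0083 and 0.032 in ITPK1-WT cells (edgeR adjusted p = 0.702 and 0.181). In ITPK1-KO cells none of the 12 passed under IgA. On the non-targeting scale 1 of the 12 rose, against 11 of all 76 genes. With the main scaling, Bax and Bak1 were at 0.0070 and −0.016, with edgeR adjusted p of 0.779 and 0.604. In the difference of the IgA effects none of the 12 passed.

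Between the backgrounds, 6 of these 12 genes passed, 2 higher and 4 lower in ITPK1-KO cells, against 43 of all 76 genes (56.6%), 21 higher and 22 lower, so the list's count is no larger than that of the library. Among those lower were Bbc3 (−0.40, edgeR adjusted p = 2.35e-26) and Bax (−0.18, 1.02e-17). Bad, a BH3-only protein, was higher (0.088, adjusted p = 0.000305), as was CASP6 (0.035, 0.0366), which lost its call once non-targeting sgRNAs set the scale. That scale gave 1 higher and 9 lower. Bax was thus lower in the background in which APAF1 was higher, and Bak1 did not pass (−0.025, adjusted p = 0.102).

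The genes around cIAP1 at the TNF receptor were counted from a list of which 13 are in the library: Casp8, Cd27, Cyld, Fadd, Fas, Ltbr, Mlkl, Ripk1, Ripk3, Spata2, Tnfrsf10b, Tnfrsf1a and Tnfrsf1b. In ITPK1-WT cells under IgA, 5 of 13 rose and 2 fell, against 16 and 12 of all 76 genes, with a median of 0.0039 against −0.0033 over all genes. Cyld, the deubiquitinase that opposes cIAP1 products, rose (0.13, edgeR adjusted p = 0.000202), as did Ltbr (0.090, 0.0105) and Ripk3 (0.082, 0.0123). Fadd, the adaptor of caspase-8, fell (−0.14, adjusted p = 0.000309). Ripk1, the kinase that cIAP1 ubiquitinates, fell too (−0.072, adjusted p = 0.0116), a decrease that was not called with the scale set by non-targeting sgRNAs (−0.020, adjusted p = 0.492). Under that scaling 7 of 13 rose and 1 fell.

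In ITPK1-KO cells under IgA, 2 of these 13 genes rose and 1 fell, against 6 and 4 of all 76. On the scale of the non-targeting sgRNAs 5 rose and 1 fell, against 11 and 3 of all 76. Ripk1 fell by 0.26 on the log2 scale (SE 0.022, edgeR adjusted p = 5.35e-08), more than any of the 4 members moved in either background. Cyld rose by 0.19 (adjusted p = 3.34e-06) and Ltbr by 0.076 (adjusted p = 0.0114). In the difference of the IgA effects, Ripk1 was the 1 gene of the 13 to pass (−0.19, adjusted p = 5.86e-06). Between the backgrounds, 5 of the 13 were lower and none higher in ITPK1-KO cells, against 22 lower and 21 higher of all 76 genes. The 5 were Spata2 (−0.21), Cd27 (−0.11), Fadd (−0.060), Cyld (−0.052) and Tnfrsf1a (−0.043), with adjusted p from 1.26e-09 to 0.0235, and Ripk1 did not pass (0.023, adjusted p = 0.196). On the non-targeting scale 8 of the 13 were lower and none higher. Birc2 itself moved the other way between the backgrounds from these 5.

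Likeness was measured as the root mean square difference of centred log2 CPM over the 16 recovered libraries. The genes nearest to APAF1 were Casp12 (0.033) and Olfr1404 (0.037), against a median of 0.069 over all other genes. Nearest to Casp9 were Bak1 and Tnfrsf8 (both 0.030, median 0.051), nearest to Diablo were Defb1 (0.032) and Casp9 (0.033, median 0.056), and nearest to Birc2 were Alox12 (0.033) and Alox15 (0.035, median 0.062). One member pair, Diablo and Casp9, was thus among the nearest. APAF1 and Casp9, which act in the same complex, were not nearest to each other.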

How the data were processed

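Whole-read counts per sgRNA were deposited by the authors for 16 libraries from mice and 2 from before injection. Per the series' design text, mismatched reads were dropped and sgRNAs scored by MAGeCK, version 0.5.6; no aligner is named in the sources used here. Per the file headers, the authors' MAGeCK table for either background lists for every sgRNA its log2 fold change, p-value and FDR; 4 further columns of per-sample values in these tables were not used. Both the members and the gene lists were chosen with earlier results of these data known. The named genes were the members, up to 5 genes of each list past the threshold per comparison, Bax, Bak1, Xiap and Ripk1, and the 2 genes most like each member; some genes that the rule names are not reported here.

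Counts per sgRNA, and summed per gene, were tested with edgeR 4.0.16 (quasi-likelihood, TMM factors from sgRNAs) in R 4.3.3, keeping sgRNAs that averaged 10 or more reads, with Benjamini-Hochberg adjustment over all sgRNAs or all genes and a threshold of 0.05. All 12 members passed the filter. Tests in each background used its 8 recovered libraries, and the other comparisons all 16. A group held 4 mice. Log2 ratios to the starting libraries used 0.5 added reads. DESeq2 1.42.0, limma 3.58.1, other scalings and filters, and leaving out each mouse were alternatives. The steps were tested on simulated data. No 2 libraries of a group agreed within sampling noise (chi-square per degree of freedom 2.24 to 5.62). ITPK1-WT and ITPK1-KO libraries of 1 mouse are paired by animal, and their deviations from the group means correlated by −0.084 to 0.26 over 238 sgRNAs.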

Additional observations from a re-analysis of the deposited data

Results flagged for a closer look

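Ripk1, the substrate kinase of cIAP1, was singled out because its IgA effect differed between the backgrounds by the test of the difference itself: −0.19 on the log2 scale (SE 0.031, edgeR adjusted p = 5.86e-06), with an effect of −0.072 (ITPK1-WT) against −0.26 (ITPK1-KO). None of the 4 members passed that test. Dixon's test flagged no mouse in the 64 groups of member values examined. With 4 mice per group, Dixon's test can flag only a value far from the rest, so it does not show that the mice were alike. Over the whole library, the ITPK1-WT library of mouse 6 differed most from those of mice 7 and 8 (chi-square per degree of freedom 5.33 and 5.62). The next highest value for a pair within a group was 3.35. Mouse 6 also had the most cells sorted of the IgA mice, and the part of cell number was not tested.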

How the results depend on the processing

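With the mouse as a replicate block (paired libraries), no gene-level call of a member changed: APAF1 was at 0.074 and Casp9 at 0.052 in ITPK1-WT cells under IgA. In that comparison, APAF1 was at 0.079 (adjusted p = 0.0673) with the number series as a covariate, Casp9 at 0.048 (0.0811) under limma on mean log2 CPM, and Diablo at 0.084 (0.00140) scaled to the non-targeting sgRNAs, where APAF1 in ITPK1-KO cells reached 0.053 (0.0366). With each mouse left out, ITPK1-WT values ran from 0.042 to 0.063 for Casp9, 0.022 to 0.052 for Diablo and −0.057 to −0.032 for Birc2, and the recovered ITPK1-KO minus ITPK1-WT value of Diablo from 0.0082 to 0.036. Calls over all genes in ITPK1-WT cells fell from 28 to 10, and over all sgRNAs from 70 to 17, with the number series as a covariate, and to 17 and 45 without mouse 7. In ITPK1-KO cells that covariate gave 5 genes and 15 sgRNAs, from 10 and 26. Between the backgrounds, mice 6 to 8 alone gave 23 genes and 60 sgRNAs, from 43 and 114, with 1 member sgRNA. Mice 1 to 5 alone gave 37 genes and 86 sgRNAs, with 4 member sgRNAs. Without mouse 6, the difference of IgA effects had 17 sgRNAs, from 10. Member sgRNAs past the threshold went from 4 to 1 (number series) or 2 (without mouse 7) in ITPK1-WT cells, from 0 to 2 without mouse 5 in ITPK1-KO cells (all sgRNAs 26 to 31), from 0 to 2 without mouse 6 or 1 under non-targeting scaling (10 to 9) for the difference, and from 7 to 3 under that scaling (114 to 108) between backgrounds. Relative to the median of all sgRNAs in place of the non-targeting ones, the starting difference turned to −0.015 for Casp9 and −0.047 for Diablo, and was 0.091 for APAF1 and 0.038 for Birc2. The change from before injection was then 0.017 (vehicle) and 0.040 (IgA) for APAF1 in ITPK1-KO cells; 0.00070 (ITPK1-WT, IgA), −0.024 (ITPK1-KO, vehicle) and −0.030 (ITPK1-KO, IgA) for Casp9; −0.018, 0.023 and 0.019 for Diablo; and −0.089, −0.022 and −0.057 for Birc2. The cause of these shifts was not tested. Depth of 922 to 4032 starting reads per member sgRNA and 4 mice per arm limit what could be detected, and nothing separates the number series from the arm beyond mouse 5.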
